A study of Gallus gallus with 3 samples.

Results

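The HOXA genes of the chicken forelimb were followed at embryonic days E4, E6 and E10. They were taken as all rows of the deposited gene tables whose symbol starts with HOXA, which gave 10 of the 24356 rows. Those described here are HOXA2, HOXA3, HOXA4, HOXA5, HOXA6, HOXA7, HOXA9, HOXA10 and HOXA11. Forelimb cells of wild-type chicken embryos were dissociated and sequenced with a droplet 3′ tag chemistry, without genetic change or treatment, and the embryos of each stage (2 at E4, 3 at E6 and 3 at E10) were pooled into 1 library. With 1 library per stage, no difference between stages or cell groups has a replicate check, so no test is given. A difference is called by size alone, at 2-fold or more either way, and each interval is an exact 95% interval that covers counting error only, not differences between embryos or preparations.

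HOXA genes encode homeodomain transcription factors that lie side by side in 1 cluster, and their order along the chromosome matches the order in which they are used along the body and the limb. The genes with low paralogue numbers, at the 3′ end, are active early and near the trunk, HOXA9 and HOXA10 mark the limb from the upper arm outwards, HOXA11 is the classical gene of the forearm, and HOXA13 marks the hand plate or autopod. HOX proteins act on DNA together with TALE homeodomain cofactors of the MEIS and PBX families, of which MEIS1 marks the proximal limb. Order and gene spans were taken from the RefSeq annotation of the chicken (assembly GRCg7b, a later build than the GRCg6a annotation of the counts). There the cluster lies between SKAP2 and EVX1, with HOXA13 on the side of EVX1.

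No row carries the symbol HOXA13. The row ENSGALG00000027234, which the files list without a symbol, is paired with HOXA13 in the marker table of the study, and its values are given beside the members as "the HOXA13 row". In the RefSeq gene models the span of HOXA10 lies within that of HOXA9 (9925 shared bases), and that of HOXA3 overlaps HOXA4, HOXA5 and HOXA6. These spans are those of GRCg7b, and whether the gene models of the counts (GRCg6a) overlap in the same way was not checked. Reads in such overlaps may be split or dropped in counting. Levels are therefore compared here between cell groups for the same gene and not between genes.

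Cells were barcodes with a minimum of 1000 (E4), 700 (E6) or 450 UMIs (E10), a UMI (unique molecular identifier) standing for 1 captured RNA molecule. The cells numbered 5235, 4237 and 27361 in stage order, with medians of 3645, 2216 and 1081 UMIs per cell. Cells with a UMI of PAX7, MYF5, MYOD1 or MYOG formed the muscle group (63, 400 and 5593 cells). Of the others, cells with a HOXD13 UMI formed the HOXD13+ group (329, 1068 and 858), and the cells with a PRRX1 UMI but no HOXD13 UMI formed the PRRX1+ group (4227, 1371 and 5562), PRRX1 being a gene of the limb mesenchyme. The remaining 616, 1398 and 15348 cells had none of these UMIs. The libraries shared 13 to 35 cell barcodes in pairs.

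The groups were checked against markers that did not place the cells, as levels in CPM (UMIs of the gene, scaled to counts per 1e+06 UMIs of the group). FGFR4, a receptor of muscle progenitors, was at 157, 539 and 517 CPM in the muscle group at E4, E6 and E10, against 19.1, 19.5 and 42.5 CPM in PRRX1+ cells. Later muscle genes were absent at E4, where DES, ACTC1 and MYMK were at 0 in the 63 muscle cells (as was MYOG, one of the genes that placed them), while ACTC1 reached 1339 CPM in muscle cells at E10. PRRX1 itself was read in the muscle group at 290.5, 250.3 and 105.7 CPM, against 1637, 1403 and 1404 CPM in PRRX1+ cells. The distal label held for HOXD12, at 457, 869 and 272 CPM in HOXD13+ cells against 69.1, 297 and 85.1 CPM in PRRX1+ cells. Other distal markers followed at some stages only. MSX2 and LHX9 were lower in HOXD13+ than in PRRX1+ cells at E4 (62.9 against 184 and 2.71 against 13.5 CPM) and at E6 (268 against 319.9 and 9.09 against 34.3 CPM). At E10 MSX2 and LHX9 were higher in HOXD13+ cells (30.1 against 17.9 and 9.11 against 4.75 CPM). SALL1 was lower at E6 (63.3 against 78.3 CPM), but higher at E4 (94.8 against 23.4 CPM) and E10 (55.6 against 32.3 CPM). HOXD11 was higher at E4 (307.8 against 58.4 CPM) and E6 (187 against 117 CPM), and was at 92.0 against 87.2 CPM at E10. Haemoglobin genes, which mark red blood cells, were at 11272 CPM in HOXD13+ cells at E10. They were at 2452 CPM in PRRX1+ cells and 4822 CPM in barcodes without a cell. The HOXD13+ rule did not leave out erythroid barcodes. With these removed, 109 of 109 gene ratios over all stages stayed within their counting interval. There were only 7 and 1 such barcodes at E4 and E6, against 450 at E10, so ratios without an E10 group could hardly move. The part of haemoglobin in the E10 results was not tested beyond this and the subtraction given with the alternatives.

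The HOXA genes were read in the forelimb at very different depths. HOXA2 had 109, 24 and 62 UMIs in all cells of E4, E6 and E10. The 8 members from HOXA3 to HOXA11 had 2574 to 15972 UMIs over the 3 libraries, and the HOXA13 row had 47, 1825 and 1097. The trunk-side genes and the limb genes are therefore described from HOXA3 onwards, with HOXA2 in counts where it reached the minimum of 50 UMIs over both groups compared.

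The summed HOXA level was lowest at E10 in each of the 3 groups. In HOXD13+ cells it was 1667 CPM at E4 (interval 1609 to 1727), 987 CPM (953 to 1022) at E6 and 806 CPM (753 to 860) at E10. In PRRX1+ cells it was 1124, 1259 and 781 CPM, so E6 was above E4 there. In the muscle group it was 1449, 893 and 599 CPM. The HOXD13+ group was thus the highest of the 3 at E4, the PRRX1+ group at E6, and at E10 these 2 groups had overlapping intervals with muscle below them. Barcodes without a cell (at most 100 UMIs), which hold free RNA, read HOXA genes at 824, 546 and 389 CPM. At E10, the 450 erythroid barcodes were at 97.3 CPM.

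**Figure D1:**
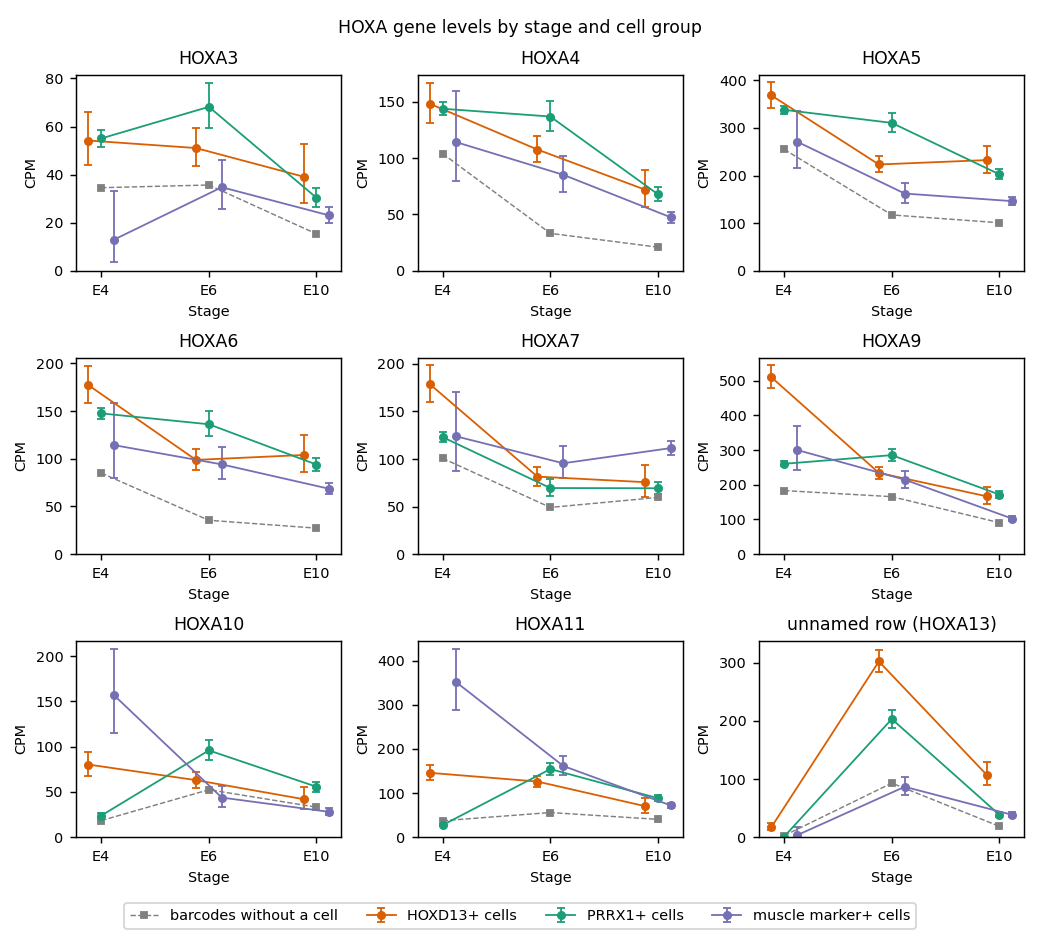
Level in CPM (vertical axis, from 0, own scale per panel) of HOXA3 to HOXA11 and of the unnamed HOXA13 row at E4, E6 and E10 (horizontal axis) in HOXD13+, PRRX1+ and muscle marker+ cells, 1 library per stage, with exact 95% counting intervals, and in barcodes without a cell (grey squares). HOXA10 and HOXA11 in the muscle group started at 157 and 352.5 CPM at E4 and were at 27.9 and 71.7 CPM at E10, whereas in PRRX1+ cells both peaked at E6.

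The genes from the trunk side of the cluster, HOXA3 to HOXA6, were near level between HOXD13+ and PRRX1+ cells at E4, and lower in HOXD13+ cells at E6. HOXA5, which in mouse patterns the axial skeleton and the lung, was at 368, 223 and 232 CPM in HOXD13+ cells, 338, 310.2 and 202 CPM in PRRX1+ cells and 271, 162 and 146 CPM in muscle cells at E4, E6 and E10. HOXA6, its neighbour, was at 177, 98.7 and 104 CPM in HOXD13+ cells, 148, 136 and 93.8 in PRRX1+ cells and 114, 94.0 and 68.4 in muscle cells. In both genes muscle had the lowest value of the 3 groups at every stage. HOXA4 was at 144, 137 and 67.9 CPM in PRRX1+ cells and HOXA3 at 55.1, 68.2 and 30.4 CPM, and for both the level at E10 was the lowest of the 3 stages. HOXA3 in the muscle group at E4 rested on 4 UMIs (13.1 CPM, interval 3.56 to 33.4).

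HOXA7 and HOXA9, from the middle of the cluster, took different courses. HOXA7 was at 179, 81.5 and 75.6 CPM in HOXD13+ cells and at 123, 69.5 and 69.2 CPM in PRRX1+ cells, but in the muscle group it was at 124 (interval 87.8 to 170.2), 95.5 and 111.5 CPM (104.5 to 118.9). Of HOXA3 to HOXA11, HOXA7 was the one with a higher muscle value at E10 than at E6. Its E6 level rested on 129 UMIs, and the counting intervals of these stages overlapped. HOXA9 was at 510.5 CPM in HOXD13+ cells at E4 (478 to 544) and at 234 and 167 CPM at E6 and E10. In PRRX1+ cells it was at 260.4, 285 and 172 CPM, and in muscle cells at 300.3, 215 and 102 CPM.

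HOXA10 and HOXA11, the members of the limb proper, were both highest in muscle and lowest in PRRX1+ cells at E4, an order that only HOXA10 turned over at E6. HOXA10 was at 157 CPM in muscle cells at E4 (interval 115.5 to 208), 80.2 in HOXD13+ cells (67.8 to 94.2) and 23.7 in PRRX1+ cells (21.4 to 26.2). At E6 the order was the reverse, at 43.7 (33.3 to 56.4), 63.0 (54.6 to 72.3) and 95.9 CPM (85.4 to 107). At E10 the levels were 27.9 (24.4 to 31.7), 41.9 (30.7 to 55.9) and 55.7 CPM (50.4 to 61.3). At E4 none of the 3 intervals overlapped another. At E6 those of muscle and HOXD13+ cells overlapped below that of PRRX1+ cells, and at E10 the HOXD13+ interval overlapped both of the others.

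HOXA11 was at 352.5 CPM in muscle cells at E4 (interval 289 to 426), 146 in HOXD13+ cells (129 to 164) and 27.4 in PRRX1+ cells (24.9 to 30.0). At E6 the levels were 161 (141 to 184), 126 (114 to 139) and 154 CPM (141 to 169), with muscle and PRRX1+ cells not distinguished by their intervals. At E10 they were 71.7 (66.1 to 77.7), 70.2 (55.4 to 87.7) and 88.2 CPM (81.6 to 95.3). The wide spread between groups at E4 had thus narrowed by E10. There the HOXD13+ interval overlapped both others, but those of muscle and PRRX1+ cells did not overlap, with PRRX1+ cells the higher.

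These levels are read beside those of barcodes without a cell. HOXA10 was at 18.3, 52.4 and 33.1 CPM and HOXA11 at 37.1, 55.7 and 40.3 CPM in these barcodes at E4, E6 and E10. HOXA10 in muscle cells was thus far above them at E4, below them at E10, and at E6 at a level whose interval includes theirs, and HOXA11 in PRRX1+ cells at E4 was below them. The share of free RNA in a group's UMIs was estimated from the haemoglobin genes, leaving out the cells with the most haemoglobin. It was 1.47 to 2.11% at E10. With all cells kept, haemoglobin at E10 was at 2141 CPM in muscle against 4822 CPM in barcodes without a cell. At E4 and E6 the groups had only 3.45 to 10.9 CPM of haemoglobin, and the estimate was 0 to 0.030%. Barcodes without a cell had 3833 CPM of haemoglobin at E4 and 575 CPM at E6. The subtraction thus removed almost nothing at these stages. Whether haemoglobin stands for the free RNA of the HOXA genes was not tested. The part of free RNA in the low levels of HOXA10 in muscle was not tested beyond this and a subtraction at 10%.

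Over all cells, HOXA10 was at 32.0, 74.8 and 43.4 CPM at E4, E6 and E10. A HOXA10 UMI was read in 9.0%, 15.2% and 4.86% of all cells. As the median cell had 3645, 2216 and 1081 UMIs, each cell was also thinned to 450 UMIs, which gave 1.18% (interval 0.909 to 1.52), 2.97% (2.48 to 3.53) and 2.02% (1.85 to 2.19). E6 was the highest either way, and the thinned shares had the order of the CPM, E10 above E4, where the shares at full depth had not. Within E4 the thinned share was 12.7% in muscle cells (5.65 to 23.5), 3.04% in HOXD13+ cells and 0.946% in PRRX1+ cells. In erythroid barcodes at E10, with a median of 1366 UMIs, 7 of 450 or 1.56% had a HOXA10 UMI, below the 4.86% of all cells at a median of 1081 UMIs. At E4 and E6 there were only 7 and 1 erythroid barcodes, none of them with a HOXA UMI.

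The comparison of HOXD13+ with PRRX1+ cells asks how the HOXA genes differ between cells with a HOXD13 UMI and PRRX1+ cells without one. It is not a clean split of distal from other mesenchyme. At E6 PRRX1+ cells still had 297 CPM of HOXD12 and 203.3 CPM of the HOXA13 row. HOXD13+ cells needed no PRRX1 UMI, and at E10 they had 498 CPM of PRRX1 against 1404 CPM in PRRX1+ cells. At E4 HOXA10 and HOXA11 were the members past 2-fold, and both were higher in HOXD13+ cells. HOXA10 was 3.38 times as high (interval 2.78 to 4.09) and HOXA11 5.33 times (4.57 to 6.21). HOXA9 stood just inside the limit at 1.96 times (1.83 to 2.10), HOXA7 was at 1.45 (1.29 to 1.63), and HOXA2 to HOXA6 lay between 0.80 and 1.20. The HOXA13 row, with few UMIs at E4, was at 16.8 CPM (11.4 to 23.9) against 0.785 CPM, a ratio of 21.4 (10.9 to 44.6). Of 9 members with enough UMIs, 2 were higher past 2-fold and 0 lower, where 1.17% of all genes tested were higher and 5.09% lower. The median log2 ratio of the members was 0.26, against -0.0040 over all genes tested.

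At E4 the ratios from HOXA2 to HOXA11 followed the order of the genes in the cluster without exception (Spearman's rho 1 over 9 genes, which share the same 2 groups of cells). Neighbouring genes from HOXA2 to HOXA7 had overlapping intervals, and those of HOXA2, HOXA3 and HOXA4 include 1. The intervals of HOXA7, HOXA9, HOXA10 and HOXA11 lay apart from each other. The order was not particular to HOXD13+ cells. Muscle against PRRX1+ cells at E4 gave a rho of 0.93 over 9 genes, with HOXA2 and HOXA3 on 1 and 4 muscle UMIs. The values that follow are again for HOXD13+ against PRRX1+ cells. At E6 rho was 0.17 over 8 genes, and 0.42 with the HOXA13 row, so no order is read there. At E10 rho was -0.83, and -0.28 with the HOXA13 row. There 7 of the 8 member ratios had intervals that include 1, so no order is read at E10 either. The cells of all groups at a stage come from the same library, so the order at E4 is a description of the E4 library and not an estimate over embryos.

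At E6 and E10 no member passed 2-fold between HOXD13+ and PRRX1+ cells. At E6 HOXA10 was at 0.66 times the PRRX1+ level (interval 0.547 to 0.788) and HOXA11 at 0.82 (0.714 to 0.933). HOXA3, HOXA4, HOXA5, HOXA6 and HOXA9 were lower as well, between 0.72 and 0.82 with intervals below 1, and HOXA7 was at 1.17 (0.977 to 1.41). The counts were 0 higher and 0 lower of 8, with 0.57% of all genes tested higher and 2.23% lower. At E10 HOXA10 was at 0.75 (0.543 to 1.02) and HOXA11 at 0.80 (0.620 to 1.01), both with intervals that include 1, and HOXA3 was at 1.29 and HOXA5 at 1.15. The counts were again 0 and 0 of 8, with 1.72% of all genes higher and 2.19% lower. The median log2 ratio of the members was -0.38 at E6 and 0.11 at E10, against 0.027 and 0.011 over all genes tested. The HOXA13 row was higher in HOXD13+ cells at both stages, at 302.4 against 203.3 CPM at E6 (1.49 times, 1.35 to 1.65) and 107.5 against 38.3 CPM at E10 (2.81 times, 2.25 to 3.49).

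**Figure D2:**
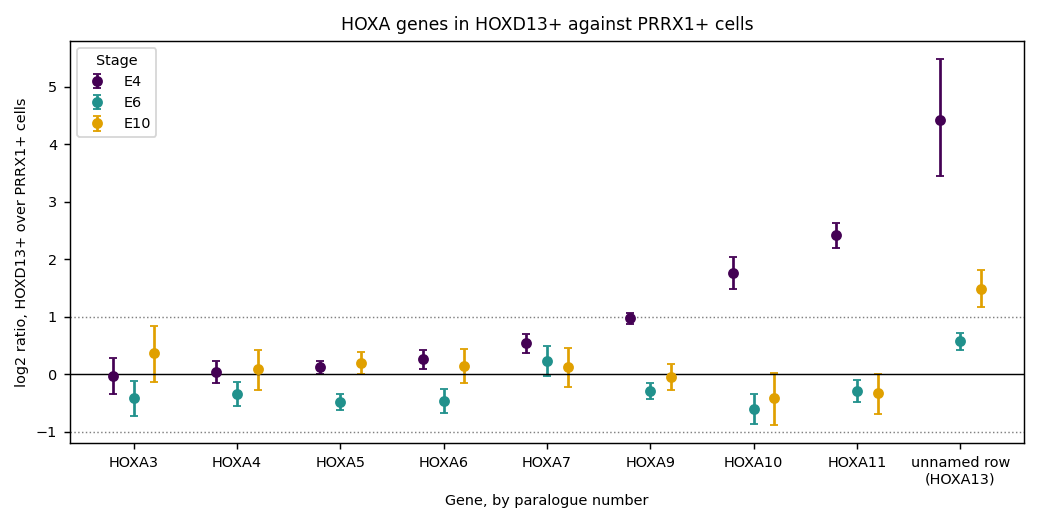
Log2 ratio of the level in HOXD13+ over PRRX1+ cells (vertical axis, with exact 95% counting intervals and dotted lines at 2-fold) for HOXA3 to HOXA11 and the unnamed HOXA13 row in paralogue order (horizontal axis), by stage. The E4 points climb from HOXA3 at a ratio of 0.98 to HOXA11 at 5.33, whereas the E6 and E10 points of HOXA10 and HOXA11 lie below 0.

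The same relation was looked for within single cells, as cells with a UMI of 2 genes against the number that the product of both shares gives. HOXD13+ and PRRX1+ cells together were thinned to 1000, 700 and 450 UMIs at the 3 stages. At E4 HOXA10 and HOXA11 were found together in 18 cells where 2.42 were given by the product, a ratio of 7.43 (interval 4.40 to 11.7). In PRRX1+ cells alone it was 12 cells against 1.20, or 10.03 times (5.18 to 17.5), so the ratio was as large without the HOXD13+ cells. HOXA9 and HOXA10 at E4 were found together 2.21 times as often as the product (1.57 to 3.02). For HOXA10 with HOXA11 the E6 ratio was 1.68 (0.976 to 2.68) and the E10 ratio 0.95 (0.309 to 2.22), so that a joint pattern was not detectable at this depth there.

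Cells were also split by HOXA11 itself, which is a description since the split uses a HOXA gene. At E4 the 381 HOXD13+ or PRRX1+ cells with a HOXA11 UMI had 110 CPM of HOXA10 against 18.2 CPM in the 4175 without, a ratio of 6.06 (interval 5.09 to 7.2). HOXA9 was 2.24 times as high in these cells and HOXA5 1.17 times. HOXD13 was 6.26 times and HOXD11 3.51 times as high, and MEIS1, the proximal marker, was at 0.30 times. The cells with a HOXA11 UMI were deeper, at a median of 5768 against 3605 UMIs. The same split gave a HOXA10 ratio of 1.39 at E6 (1.15 to 1.67) and 1.85 at E10 (1.44 to 2.35), both with intervals above 1 at full depth.

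A further split of the PRRX1+ cells, by a MEIS1 UMI, was chosen after the values had been seen. At E4 HOXA11 was at 10.9 CPM in the 1103 cells with a MEIS1 UMI and 33.6 CPM in the 3124 without (0.33 times, interval 0.238 to 0.438). HOXA10 was at 0.81 times with an interval that includes 1 (0.638 to 1.03), and HOXA3 to HOXA9 lay between 0.95 and 1.10. At E6 HOXA11 was at 0.28 times (0.114 to 0.589) in only 56 cells with a MEIS1 UMI, HOXA10 at 0.94 and the HOXA13 row at 0.091. The E6 interval of HOXA10 was 0.510 to 1.61 and overlapped that of HOXA11. At E10, with 102 cells with a MEIS1 UMI, HOXA11 was at 0.62 times (0.295 to 1.14). HOXA10 was at 0.79 times there (0.337 to 1.56), and both intervals include 1. HOXA11 and HOXA10, both higher in HOXD13+ cells at E4, therefore had intervals apart across MEIS1 at E4 only.

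Between stages, PRRX1+ cells at E6 were set against those at E4. HOXA10 was 4.04 times as high at E6 (interval 3.47 to 4.70) and HOXA11 5.64 times (4.96 to 6.42), while HOXA7 was at 0.57 times (0.489 to 0.649) and the others except HOXA2 lay between 0.92 and 1.24. HOXA2 was at 0.58 times. Of 9 members, 2 were higher past 2-fold and 0 lower, where 8.62% of all genes tested were higher and 5.25% lower. The HOXA13 row went from 0.785 to 203.3 CPM. In HOXD13+ cells, which were 6.29% of all cells at E4 and 25.2% at E6, HOXA10 and HOXA11 were not higher at E6. The HOXA13 row was higher in HOXD13+ cells too, at 16.8 CPM at E4 and 302.4 CPM at E6. There HOXA10 was at 0.79 times and HOXA11 at 0.86 times the E4 level, whereas HOXA7 (0.46) and HOXA9 (0.46) were lower past 2-fold. That was 0 higher and 2 lower of 8, with 8.18% and 4.14% of all genes. Fewer cells with a gene and less RNA per cell cannot be told apart in these summed levels.

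From E6 to E10 the HOXA levels of PRRX1+ cells were lower, apart from HOXA7 at 0.997 times. HOXA3 (0.45 times) and HOXA4 (0.50) were lower past 2-fold, and HOXA10 (0.58), HOXA11 (0.57) and HOXA9 (0.60) were within the limit. That gave 0 higher and 2 lower of 8, where 8.07% of all genes tested were higher and 4.31% lower. Over the members the median log2 ratio was -0.76, against -0.035 over all genes. In HOXD13+ cells 0 of 8 were past 2-fold either way (8.72% and 6.81% of all genes), with HOXA11 at 0.56 times and HOXA10 at 0.67 times. The HOXA13 row was at 0.19 times the E6 level in PRRX1+ cells.

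In muscle cells the question was whether the HOXA genes of the limb are shared by myogenic cells, which come mostly from the somites, and the mesenchyme around them. At E4 they were, at higher levels in muscle. HOXA10 was 6.60 times as high in the 63 muscle cells as in PRRX1+ cells (interval 4.79 to 8.92) and HOXA11 12.9 times (10.4 to 15.9). HOXA9 (1.15) and HOXA7 (1.01) were near equal, HOXA4 to HOXA6 lay between 0.77 and 0.80, and HOXA3 was at 0.24 times on its 4 UMIs (0.0645 to 0.609). Of 9 members, 2 were higher past 2-fold and 1 lower, where 5.93% of all genes tested were higher and 14% lower. Against the HOXD13+ group, too, the levels in muscle were higher, at 157 against 80.2 CPM for HOXA10 and 352.5 against 146 CPM for HOXA11, although 0 of the 63 muscle cells had a HOXD13 UMI. In the 37 muscle cells without a UMI of PRRX1, TWIST2, PDGFRA, OSR1 or SCX, genes of connective tissue, HOXA10 was at 194 and HOXA11 at 437 CPM.

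At E6 HOXA10 was lower in muscle than in PRRX1+ cells, and HOXA11 was level with them. HOXA10 was at 0.46 times the PRRX1+ level (interval 0.339 to 0.604), HOXA11 at 1.05 times (0.888 to 1.23) and HOXA7 at 1.38 times (1.10 to 1.72). HOXA3 (0.51), HOXA5 (0.52) and HOXA9 (0.75) were lower within the limit, and the HOXA13 row was at 0.43 times. Of 8 members 0 were higher and 1 lower past 2-fold, with 3.29% of all genes higher and 8.3% lower. At E10 HOXA10 stood at the limit itself, at 0.50 times (0.424 to 0.589), HOXA11 at 0.81 and HOXA9 at 0.59, and HOXA7 was at 1.61 times (1.45 to 1.80). The counts were 0 and 0 of 8, with 5.28% of all genes higher and 13.4% lower. HOXA7 was the member with a muscle level above that of PRRX1+ cells at both E6 and E10. The median log2 ratio of the members was -0.32, -0.61 and -0.46 at the 3 stages, against medians between -0.027 and -0.0071 over all genes.

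**Figure D3:**
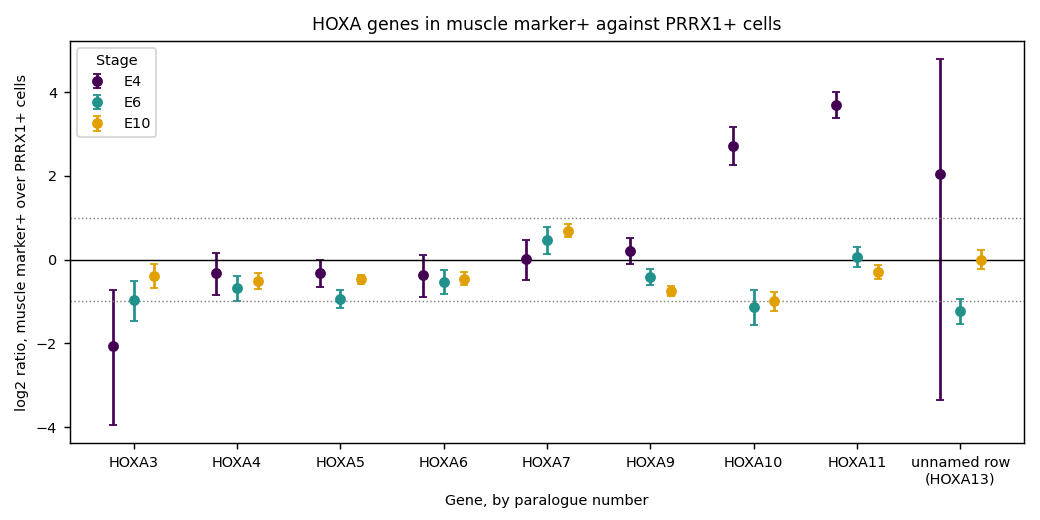
Log2 ratio of the level in muscle marker+ over PRRX1+ cells (vertical axis, exact 95% counting intervals, dotted lines at 2-fold) for HOXA3 to HOXA11 and the unnamed HOXA13 row in paralogue order (horizontal axis), by stage. HOXA10 and HOXA11 stand above the upper line at E4 only (ratios of 6.60 and 12.9), and HOXA7 lies above 0 at E6 and E10.

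Within the muscle group the stages were compared as well. From E4 to E6 HOXA10 was at 0.28 times (interval 0.187 to 0.417) and HOXA11 at 0.46 times (0.362 to 0.582) the E4 level, and HOXA3 was at 2.67 times with an interval of 0.975 to 10.2. The HOXA13 row went from 3.26 to 86.6 CPM. That was 1 higher and 2 lower of 8 members, where 7.29% of all genes tested were higher and 2.73% lower. From E6 to E10 HOXA11 was at 0.44 times and HOXA9 at 0.47 times, both past 2-fold, and HOXA7 was at 1.17 times. That was 0 higher and 2 lower of 8, with 6.7% and 4.17% of all genes. The direction of HOXA10 and HOXA11 from E4 to E6 was thus lower in muscle and higher in PRRX1+ cells, and this difference between groups was not tested.

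The muscle cells at E4 did not share the HOXA genes evenly. HOXA11 was read in 31 of the 63, with 19 cells at 3 or more UMIs and up to 10 in 1 cell, and HOXA10 in 28, with up to 4 UMIs. Both were read in 22 cells and neither in 26. The 31 cells with a HOXA11 UMI had 80.9 CPM of HOXA5 against 562 CPM in the 32 without (0.14 times, interval 0.0763 to 0.254) and 48.5 against 240 CPM of HOXA7 (0.20 times), while HOXA9 was at 1.49 times (0.942 to 2.41). HOXA10 was at 205 against 82.7 CPM (2.48 times, 1.21 to 5.58). PRRX1 was at 53.9 CPM in the cells with HOXA11 and 653 CPM in those without, and the median depth was 5919 against 3094 UMIs. The cells without HOXA11 thus had more RNA of the mesenchymal gene and less depth.

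Splits that use no HOXA gene were added after these values had been seen. The 22 muscle cells at E4 with UMIs of at least 2 of the muscle genes that did not place cells were set against the other 41. HOXA11 was at 570 against 189 CPM (3.02 times, interval 1.98 to 4.70) and HOXA10 at 251 against 85.8 CPM (2.92 times, 1.54 to 5.79). HOXA5 was at 129 against 378 CPM (0.34 times, 0.188 to 0.590), HOXA7 at 45.6 against 183 CPM (0.25 times, 0.0852 to 0.604) and HOXA9 at 1.22 times. PRRX1 was at 0.096 times and MEIS1 at 0.19 times. In the split by a PRRX1 UMI, the 41 cells without one were 2.14 times as high in HOXA11 (1.31 to 3.62) and 2.23 times in HOXA10 (1.06 to 5.25), with HOXA5 at 0.96 and HOXA9 at 0.97 times. The muscle cells with more muscle RNA were therefore the ones with more HOXA10 and HOXA11 and less HOXA5 and HOXA7.

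At E6 the same split by muscle genes (290 against 110 cells) gave ratios of 1.09 for HOXA11, 1.24 for HOXA10 and 1.07 for HOXA5, each with an interval that includes 1. In the split by PRRX1 (274 cells without, 126 with), HOXA10 was at 0.49 times in the cells without a PRRX1 UMI (interval 0.281 to 0.836) and the HOXA13 row at 0.24 times (0.157 to 0.358), while HOXA11 was at 1.03 times (0.770 to 1.37). At E10 (4989 against 604 cells) HOXA10 was at 0.67, HOXA11 at 0.61 and HOXA9 at 0.72 times, and HOXA7 at 1.11 times (0.909 to 1.37). At E6, 43 of the 400 muscle cells also had a HOXD13 UMI, or 10.8%, against 47 of 5593, or 0.84%, at E10.

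Along differentiation, PAX7 marks muscle progenitors and MYOG differentiating cells. At E10 the 1059 cells with a MYOG UMI and no PAX7 UMI had lower HOXA levels than the 2241 with PAX7 and no MYOG. HOXA5 was at 66.2 against 189 CPM (0.35 times), HOXA11 at 36.0 against 93.5 CPM (0.39 times, interval 0.285 to 0.513) and HOXA10 at 16.7 against 33.3 CPM (0.50 times, 0.315 to 0.774). HOXA3, HOXA4 and HOXA6 lay between 0.37 and 0.40, and HOXA9 was at 0.51. HOXA7 differed least, at 97.7 against 118 CPM (0.83 times, 0.684 to 1.0). The HOXA13 row differed most, at 9.64 against 57.6 CPM (0.17 times, 0.0919 to 0.283). Of 8 members 0 were higher and 5 lower past 2-fold, where 5.22% of all genes tested were higher and 9.24% lower. Their median log2 ratio was -1.35, against -0.12 over all genes. At E6, with 45 against 192 cells, HOXA5 (0.48) and HOXA11 (0.41) were lower past 2-fold, 2 of 6 with enough UMIs, and 0 were higher (11.1% of all genes lower and 4.1% higher).

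**Figure D4:**
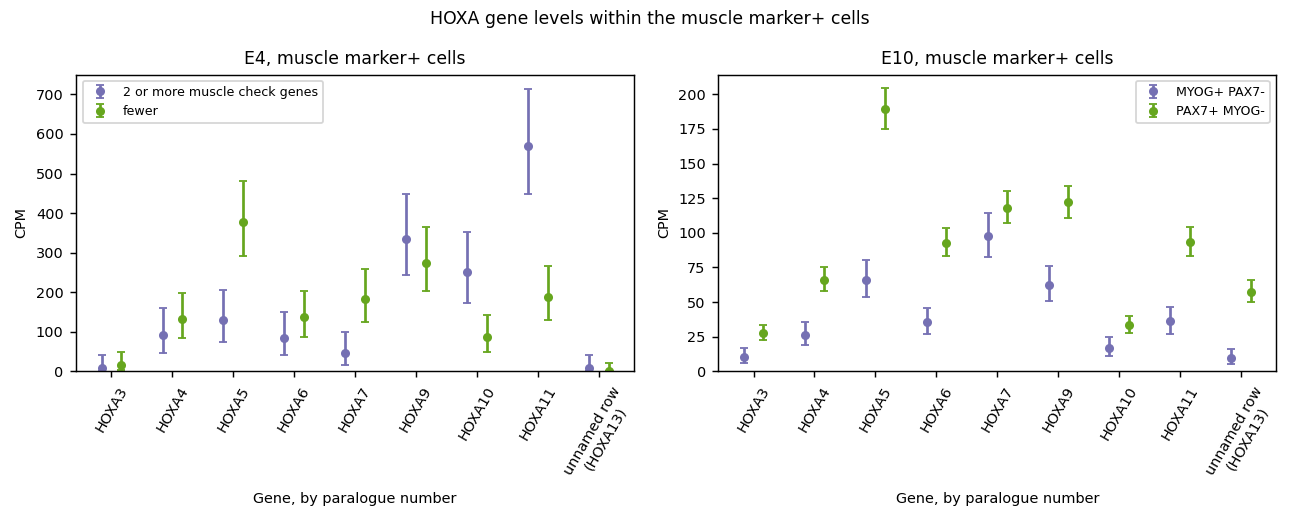
Level in CPM (vertical axis, from 0, exact 95% counting intervals) of the HOXA genes and the unnamed HOXA13 row (horizontal axis) within muscle marker+ cells. The panels set muscle cells at E4 with and without UMIs of at least 2 further muscle genes (HOXA11 at 570 and 189 CPM) and, at E10, PAX7+ cells without MYOG and MYOG+ cells without PAX7 (HOXA5 at 189 and 66.2 CPM) side by side.

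The other cell types of the limb carried part of the cluster. They were cells with UMIs of at least 2 markers of a list, outside the HOXD13+ and muscle groups. In ectoderm, the limb covering, HOXA9, HOXA10 and HOXA11 had lower values than in PRRX1+ cells at each stage. At E4 (74 cells) the ratios were 0.26 (interval 0.163 to 0.404), 0.14 (0.00348 to 0.773, 1 UMI in ectoderm) and 0.36 (0.0737 to 1.06, 3 UMIs), the last including 1. That was 3 of 9 members lower past 2-fold and 0 higher (14.2% and 7% of all genes). At E6 (61 cells) they were 0.23, 0.068 (1 UMI) and 0.25, and with HOXA6 at 0.33 there were 4 of 8 lower and 0 higher (19.6% and 4.27%). At E10 (249 cells) they were 0.35, 0.041 (1 UMI) and 0.078 (3 UMIs), and with HOXA6 at 0.49 there were again 4 of 8 lower and 0 higher (18.1% and 5.73%). HOXA7 in ectoderm had intervals that include 1 at all 3 stages, at 1.30 times at E10 (0.913 to 1.80).

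Of these cell types, endothelial cells at E10 (92 cells) alone had HOXA7 higher past 2-fold. HOXA7 was at 183 against 69.2 CPM in PRRX1+ cells, 2.64 times as high (interval 1.66 to 4.01). HOXA9 was at 0.093 times, and HOXA11 had 0 UMIs. HOXA3 (0.26 times, 1 UMI), HOXA4 (0.23, 2 UMIs) and HOXA10 (0.43, 3 UMIs) were also past 2-fold, the intervals of HOXA3 and HOXA10 including 1. Of 8 members 1 was higher and 5 lower past 2-fold, where 11.5% of all genes tested were higher and 25.8% lower. In neural crest derivatives at E10 (92 cells) HOXA7 was at 1.95 times, just inside the limit and within the endothelial interval. HOXA9 was at 0.14 and HOXA11 at 0.090 times there, and HOXA10 had 0 UMIs, with 3 of 8 lower and 0 higher (22.5% and 10.4%). In leukocytes (180 cells) and erythroid barcodes (450) 8 of 8 members were lower. The share of all genes tested that was lower was 27% in leukocytes and 86.4% in erythroid barcodes, and 12.7% and 1.67% were higher, so the erythroid count is near the background of those barcodes.

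**Figure D5:**
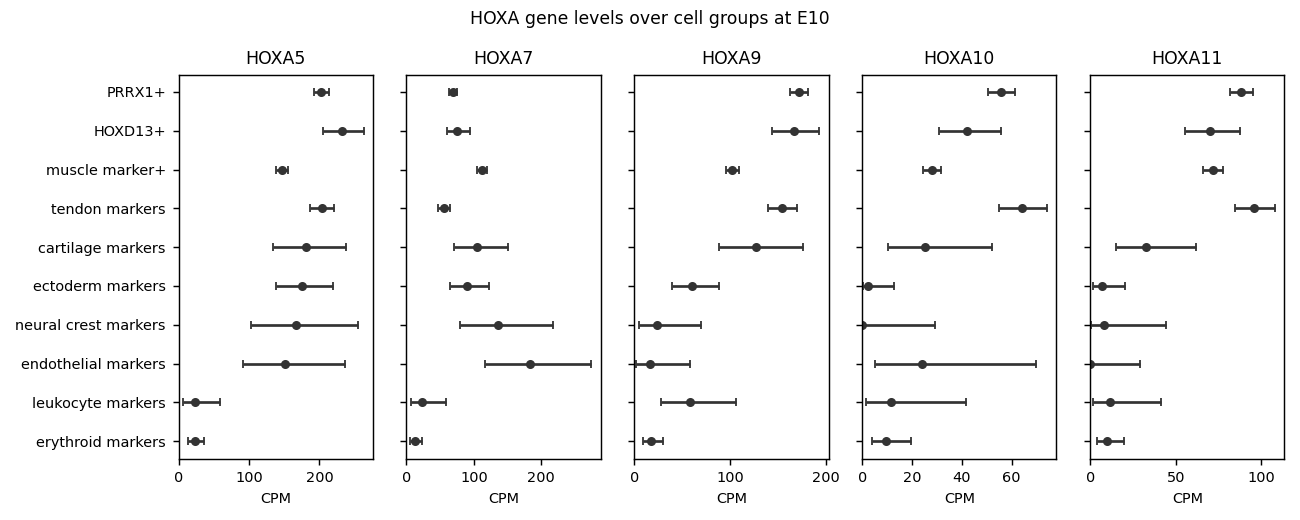
Level in CPM (horizontal axis, exact 95% counting intervals) of HOXA5, HOXA7, HOXA9, HOXA10 and HOXA11 over 10 cell groups at E10 (vertical axis). HOXA7 in endothelial cells (183 CPM) exceeds that in PRRX1+ cells (69.2 CPM), whereas HOXA11 is at 6.92 CPM in ectoderm, 7.96 CPM in neural crest and 0 in endothelial cells, against 88.2 CPM in PRRX1+ cells.

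The genes of the HOXD cluster, the other HOX cluster at work along the limb, were given beside these as a list without HOXD13, which placed the cells. Between HOXD13+ and PRRX1+ cells at E4, 3 of 6 tested were higher and 0 lower, namely HOXD10 (2.16 times), HOXD11 (5.27) and HOXD12 (6.62), beside 3.38 for HOXA10 and 5.33 for HOXA11. At E6 HOXD12 was higher (2.92) and HOXD4 (0.44) and HOXD8 (0.35) lower, and at E10 HOXD12 was higher (3.20) and HOXD10 lower (0.46). Of all genes tested, 1.17%, 0.57% and 1.72% were higher and 5.09%, 2.23% and 2.19% lower at E4, E6 and E10. In muscle cells the clusters parted. There 5 of 6 HOXD genes were lower than in PRRX1+ cells at E4, 6 of 6 at E6 and 6 of 6 at E10, with 0 higher. The shares of all genes tested that were lower were 14%, 8.3% and 13.4%, and 5.93%, 3.29% and 5.28% were higher. At E4 HOXD11 was at 0.11 times where HOXA11 was at 12.9 times. The E4 calls rested on few muscle UMIs, at 1 for HOXD10, 2 each for HOXD9 and HOXD11, 4 for HOXD12 and 8 for HOXD8. In muscle the median log2 ratio of the HOXD list was -2.09, -2.34 and -3.04 at the 3 stages, against 0.81, -0.94 and -0.86 between HOXD13+ and PRRX1+ cells.

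Of the HOX cofactors, MEIS1 was lower in HOXD13+ than in PRRX1+ cells at all 3 stages, at 0.47, 0.21 and 0.26 times. With PBX3 it made up 2 lower of 5 at E4 and 2 of 5 at E6, and 1 of 5 at E10, with 0 higher. Over all genes tested the lower shares were 5.09%, 2.23% and 2.19%. In muscle cells PBX3 was lower than in PRRX1+ cells at all 3 stages, and MEIS1 at E6 and E10. In muscle the median log2 ratio of these 5 was -0.69, -1.15 and -0.35. Across PRRX1+ cells MEIS1 was at 0.25 times its E4 level at E6, the stage at which HOXA10 and HOXA11 were at 4.04 and 5.64 times.

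Genes that flank the cluster or stand near it, SKAP2, EVX1, HIBADH, SNX10, JAZF1 and TAX1BP1, were given as a further list. Between HOXD13+ and PRRX1+ cells 1 of 5 was higher at E4 (SNX10), 0 of 4 at E6 and 0 of 5 at E10, and 0 were lower. Over all genes tested the higher shares were 1.17%, 0.57% and 1.72%. In muscle cells at E4 JAZF1 was higher and SNX10 lower (0 UMIs in muscle, against 7.97 CPM in PRRX1+ cells), and SNX10 was higher at E6 and E10. JAZF1, a zinc finger gene, shared directions with HOXA11 in part. In muscle at E4 it was at 3.76 times the PRRX1+ level (interval 1.59 to 7.66, 8 UMIs), below the 12.9 times of HOXA11 (10.4 to 15.9). In muscle at E6 JAZF1 was at 0.96 times the PRRX1+ level. In PRRX1+ cells it was at 6.94 CPM at E4 and 28.6 CPM at E6 (4.12 times, 3.09 to 5.47). Unlike HOXA11, it was also higher past 2-fold at E6 than at E4 in HOXD13+ cells (2.29 times). From E4 to E6 in PRRX1+ cells it was the 1 higher of 5, with SKAP2 the 1 lower (8.62% and 5.25% of all genes tested). The list's median log2 ratio in muscle was -0.37, -0.062 and -0.34.

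The limb axis genes were the last list. Between HOXD13+ and PRRX1+ cells at E4, 6 of 17 were higher (SHOX, SHOX2, DLX5, SALL1, HAND2 and BMP2) and 6 lower (EMX2, MSX2, LHX9, ALDH1A2, EPHA3 and EPHA7). At E6 it was 0 higher and 5 lower of 17, and at E10 2 higher and 3 lower of 15. Over all genes tested 1.17%, 0.57% and 1.72% were higher and 5.09%, 2.23% and 2.19% lower. In muscle cells 8 of 17, 15 of 17 and 13 of 15 were lower at E4, E6 and E10 (14%, 8.3% and 13.4% of all genes). There 0 were higher, with medians of -0.79, -2.46 and -2.39 on the log2 scale. From E4 to E6 in PRRX1+ cells 10 of 18 were higher and 1 lower (8.62% and 5.25% of all genes). From E6 to E10 1 was higher and 10 lower (8.07% and 4.31%). HOXA10 and HOXA11 were thus alone with the flanking JAZF1 among the HOXA, HOXD, cofactor, flanking and limb axis genes in being higher past 2-fold in muscle at E4.

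The genes whose levels ran most like each member were found over the 9 groups (3 stages by 3 cell groups) as Pearson's r of log2(CPM + 5), over 8904 genes. The 9 points share 3 libraries and their depths, and r is a description. HOXA10 ran most like HIBCH (0.92), HOXA11 (0.89) and AXIN1 (0.855), and HOXA11 most like FOCAD (0.90) and HOXA10 (0.89). HOXA5 and HOXA6, neighbours in the cluster, had an r of 0.96. HOXA7 stood beside METAP2 (0.98), CCNB2 (0.98) and TICRR (0.98), of which CCNB2 is a cyclin of dividing cells, and HOXA9 beside GNAI2 (0.96) and TBX3 (0.94). No other HOXA gene was among the 3 closest genes of HOXA7, nor among those of HOXA3, HOXA4 or HOXA9. HOXA4 still had an r of 0.92 with HOXA6 and 0.91 with HOXA9. For HOXA3 and HOXA7 the highest r with another member was 0.55 (HOXA6) and 0.50 (HOXA9).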

How the data were processed

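The deposited values were raw UMI counts per gene and barcode for 1 droplet 3′ library per stage, made by the authors with Cell Ranger 3.0.2 (STAR, GRCg6a) per the file headers and the submitters' processing notes, without filters or normalisation. Library totals were 22765180 (E4), 15004113 (E6) and 46497874 (E10) UMIs, and 0 columns were left unused. Cells were called by the UMI minimums given. At E10 this kept 27361 barcodes, more than the number of cells loaded according to the methods. Doublets were kept, with removal by Scrublet score (scanpy 1.11.5) as an alternative, since its own threshold called 1, 0 and 690 cells.

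Counts were summed over the cells of a group and divided by all UMIs of these cells (CPM). Levels have exact Poisson, shares exact Clopper-Pearson and ratios exact conditional binomial intervals at 95%. Genes needed 50 UMIs over both groups, and the minimum for likeness was 200 UMIs. Scripts ran in Python 3.11.15 with numpy 2.4.6, scipy 1.17.1, pandas 2.3.3 and matplotlib 3.10.9 and were tested on simulated data. Named were the HOXA rows with at least 50 UMIs in all cells, the lists of HOXD genes, HOX cofactors, flanking genes, limb axis genes and cell type markers, and the genes most like each member. The members and lists were chosen with earlier results of these data known. Alternatives covered the cell filters, doublets, placing genes, thinning, denominator, free RNA, UMI minimum and fold limit. RefSeq names, order and gene spans came from assembly GRCg7b, and no sequence was used. A few items of these lists are not reported here.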

Additional observations from a re-analysis of the deposited data

Results flagged for a closer look

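HOXA10, HOXA11 and HOXA9 had ratios on opposite sides of 1, with both intervals away from 1 and at least 1 of them past 2-fold, under the same comparison at another stage or in another group. None of these differences was tested, since each stage is 1 library. Between HOXD13+ and PRRX1+ cells, HOXA10 was at 3.38, 0.657 and 0.753 times at E4, E6 and E10, and HOXA11 at 5.33, 0.816 and 0.795 times. Between muscle and PRRX1+ cells, HOXA10 was at 6.60, 0.456 and 0.5005 times and HOXA11 at 12.9, 1.05 and 0.813 times. From E4 to E6, HOXA10 was at 4.04 times in PRRX1+ cells, 0.785 in HOXD13+ cells and 0.279 in muscle cells. HOXA11 was at 5.64, 0.864 and 0.458 times, and HOXA9 at 1.10, 0.459 and 0.715 times, in the same 3 groups.

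A HOXA signal was also present in barcodes without a cell, which no comparison used. Their summed HOXA level was 824 CPM at E4, 546 CPM at E6 and 389 CPM at E10.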

How the results depend on the processing

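No paired analysis was possible because each stage has 1 library and no replicate number. Of 1018 gene ratios recomputed under the alternatives, 947 stayed within the counting interval of the reported value, 71 left it and 0 turned direction past 2-fold. Of those 71, 32 came with cells thinned to 450 UMIs, 28 with 2 UMIs of the placing gene and 9 with muscle cells free of connective tissue genes. Of 136 counts of members past 2-fold, 111 stayed within 1.5 times. The others follow. Muscle against PRRX1+ cells at E6 (1 member) gave 2 with doubled UMI minimums, without high Scrublet scores, with 2 UMIs of the placing gene, with thinned cells or with 10% free RNA subtracted, 3 without connective tissue genes and 4 at 1.5-fold. At E10 (0 members) it gave 1 with the mitochondrial filter, without high Scrublet scores, with free RNA subtracted by haemoglobin or at 10%, or without connective tissue genes, 2 with 2 UMIs and 3 at 1.5-fold, HOXA10 standing at the limit there. HOXD13+ against PRRX1+ cells at E6 (0) gave 1 at 1.5-fold. E6 against E4 gave 4 at 1.5-fold in PRRX1+ cells (2) and in HOXD13+ cells 4 at 1.5-fold and 1 thinned (2). E10 against E6 gave, in PRRX1+ cells (2), 1 with free RNA subtracted by haemoglobin and 6 at 1.5-fold. In HOXD13+ cells (0) it gave 1 with 2 UMIs and 2 at 1.5-fold, and in muscle (2) 1 thinned, 1 without connective tissue genes and 5 at 1.5-fold. Muscle at E6 against E4 had no gene with enough UMIs after thinning. The cause of these moves was not tested, other than a fold limit of 1.5 admitting more genes. The share of cells with a HOXA10 UMI was 1.18%, 2.97% and 2.02% after thinning at E4, E6 and E10. With 2 UMIs of the placing gene, the order along the cluster gave a Spearman's rho of -0.12 at E6 and -0.95 at E10. The alternatives moved the median log2 ratio of all genes to between -0.13 and 0.10. The subtraction at 10% and the removal of erythroid barcodes were chosen after seeing the data. Subtraction by haemoglobin and removal of erythroid barcodes could move almost nothing in ratios that used E4 and E6 alone. Depth limits HOXA2 and the 63 muscle cells of E4 most.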

Other observations

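Cells with UMIs of at least 2 cartilage or tendon genes were followed as well. Cells with a PRRX1 UMI were kept among them, so they overlap the PRRX1+ group and were not set against it. In cartilage-marker cells HOXA10 was at 27.8 CPM at E4, 96.5 CPM at E6 and 25.3 CPM at E10 (interval 10.2 to 52.1, 7 UMIs in 207 cells), and HOXA11 was at 34.6, 84.8 and 32.5 CPM (14.9 to 61.7 at E10). In tendon-marker cells HOXA10 was at 27.4, 95.6 and 64.0 CPM (54.9 to 74.3 at E10, 1933 cells) and HOXA11 at 44.8, 126 and 95.7 CPM (84.4 to 108). At E10 the intervals of cartilage and tendon cells did not overlap for either gene, whereas HOXA5, at 180 and 203 CPM, did. HOXA7 was at 105 CPM in cartilage cells and 55.2 CPM in tendon cells at E10, also without overlap.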
